A study of Drosophila melanogaster with 50 samples.

Results

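The genes described here are 8 maternal genes of *Drosophila melanogaster* that act at egg activation and fertilization: *dhd*, *png*, *plu*, *gnu*, *smg*, *wisp*, *cort* and *sra*. They were taken by gene identifier from the 5 deposited gene tables, which list 17875 genes for ovaries and 17612 for embryos. All 8 are present in all 5 tables. The genes were chosen by function with results of these data in view, and the contrast of ovary with embryo RNA was named in the choice. The tables' columns of genotype comparisons, which may have guided it, are the authors' own results and are neither used nor printed here. What chose the genes is not a finding, and their RNA levels are a description without a test.

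At egg activation, a rise in calcium releases the mature oocyte from its arrest in the first meiotic division, and translation of stored maternal mRNAs begins. The PNG kinase, made of Png, Plu and Gnu, drives much of this change in translation, including that of *smg* mRNA, whose protein then represses and destabilizes other maternal mRNAs. Wisp lengthens poly(A) tails, Cort directs the anaphase-promoting complex in female meiosis, Sra regulates the phosphatase calcineurin, and Dhd is the germline thioredoxin that reduces sperm protamines after fertilization.

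The ovary tables compare *Kdm3* GLKD females, in which a germline short hairpin RNA against the H3K9me2 demethylase gene *Kdm3* is driven by *nosGAL4*, with control sisters that are wild type for *Kdm3*. RNA-seq and small RNA-seq of ovaries had 3 libraries per genotype. The embryo tables compare progeny of *Kdm3* GLKD females with progeny of *w* GLKD females, which carry a mock hairpin against *w*, and had 2 libraries per genotype in each experiment. The authors report that progeny of *Kdm3* GLKD females hatched at a strongly reduced rate and arrested at various stages. The pooled embryo values therefore include progeny of impaired development, and its part in them was not tested. Embryos of 3 to 5 hours gave both RNA-seq and small RNA-seq, and embryos of 0 to 2 hours gave small RNA-seq only. Peak lists of H3K9me2, H3K9me3 and the piRNA cluster protein Rhino came from ovaries, with 3 libraries per genotype for each histone mark and 2 for Rhino. All transgenes were in a *w1118* background, the females were raised at 25°C, their age is not given in the sources used here, and the knockdown acts in germ cells only while the dissected ovaries also hold somatic cells.

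The value used for RNA is the base mean, in which the authors averaged the normalized counts of every library in a table, both genotypes included. It has no value per library, so no replicate spread, interval or test can be given for any level below, and a difference between the genotypes cannot be read from it. With equal numbers of libraries, the mean of 1 genotype can lie anywhere from 0 to 2 times the base mean. Summed over genes, the base means came to 34376209 for ovary RNA and 19078513 for embryo RNA. To set ovary beside embryo, each base mean was rescaled to CPM, its share of the table's sum over the 17612 genes listed in both times 1000000, which compares shares of the RNA and not amounts. The tables were normalized separately, and whether reads of overlapping genes were counted alike in them is not given in the sources used here. In such bulk samples, fewer cells of a type and less RNA per cell cannot be told apart.

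The markers of follicle cells and of zygotic transcription differed most between the labelled tissues. The 7 germline markers summed to 2648 CPM in ovaries, from *bam* at 43.3 to *osk* at 1636, and to 989 in embryos, from *bam* at 21.5 to *nanos* at 345. Not all of them were lower in embryos, since *nanos* had 158 CPM in ovaries and *bcd* went from 63.9 to 124. The 13 follicle cell markers summed to 4369 CPM in ovaries, led by *Yp2* at 1848 with *Vm26Ab* lowest at 14.6, and to 125 in embryos, where 120.2 came from *Fas3* alone and *Vm26Ab* was lowest at 0.011. The 17 markers of zygotic transcription summed to 80.8 CPM in ovaries, led by *twi* at 41.7, and to 1334 in embryos, led by *Kr* at 207, while *Sry-alpha* had 10.8 CPM in ovaries and was listed at 0 in embryos. The 4 muscle markers, taken for the ovarian sheath, were all higher in embryos and summed to 223 CPM in ovaries, with *Act57B* at 112 and *Tm2* at 20.1, and to 1178 in embryos, with *Act57B* at 722 and *Tm2* at 62.0. The lower level of follicle cell RNA in embryos moves with every comparison of ovary with embryo below, and its part in them was not tested.

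Among the 8 genes, *dhd* had the most abundant RNA in ovaries, and *png*, *cort*, *dhd* and *plu* had the lowest embryo shares relative to ovaries. Of the 8, 4 had an embryo share at least 2-fold below the ovary share, against 22.0% of the 10573 genes compared, those with an ovary base mean of at least 10. None had an embryo share at least 2-fold above, against 18.9% of genes. Of the genes compared, 563 were listed at 0 in embryos, 145 of them with an ovary base mean of at least 1000. The ovary and embryo tables list different numbers of genes, and whether such a 0 reflects the RNA or the listing of the gene was not tested. None of the 8 genes was listed at 0, and without those genes 18.5% were at least 2-fold lower. The median log2 ratio of embryo to ovary over the 8 genes was -0.83, computed with 0.5 CPM added to both shares, and the median of all genes compared was -0.08. The median of the 8 genes minus that of all genes was -0.74.

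*dhd* (FBgn0011761) lies on the plus strand of X, chrX:5312171-5313125 of genome release 6, and its 955 bases hold no annotated intron. Its base mean was 82340.5 in ovaries and 16404 in 3- to 5-hour embryos. In CPM this was 2395 and 859.8, a log2 ratio of -1.48, and *dhd* went from rank 24 to rank 140 among all genes. Its RNA therefore stood among the most abundant of the ovary and was still within the leading 140 genes of the pooled embryos. If all embryo *dhd* reads came from 1 genotype, that genotype would average 1720 CPM, 71.8% of the pooled ovary share. The 5 protein-coding genes nearest to *dhd* in both shares, by Euclidean distance of log2 values over the 2 tables, were *Marf1*, *RpS27A*, *ATPsynC*, *RpL21* and *lost*, at distances from 0.14 to 0.27.

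The gene neighbors of *dhd* had far less RNA. *TrxT*, the testis-specific thioredoxin gene, starts on the opposite strand 282 bases away and had base means of 18.3 in ovaries and 14.9 in embryos. *CG4198* begins 132 bases beyond the end of *dhd* on its strand and had 151 and 38.6. The whole interval between the starts of *dhd* and *TrxT*, chrX:5311889-5312170 on the plus strand in the RefSeq sequence of release 6, is printed because the 2 divergent genes share it and differ so much in ovary RNA. Capitals mark the matches to the motifs searched on both strands, TATCGATA, the DNA replication-related element, TATAAA, the TATA box, and GAGAG, which had no match.
dhd and TrxT intergenic: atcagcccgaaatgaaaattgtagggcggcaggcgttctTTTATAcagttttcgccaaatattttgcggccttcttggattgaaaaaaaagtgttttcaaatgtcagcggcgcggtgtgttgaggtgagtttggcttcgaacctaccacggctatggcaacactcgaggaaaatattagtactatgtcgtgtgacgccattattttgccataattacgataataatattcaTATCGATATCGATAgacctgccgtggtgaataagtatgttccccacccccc
Within it, TATCGATA was present as a pair of overlapping copies that end 44 and 38 bases before the start of *dhd*. The same motif was in 8.0% of the 250-base windows upstream of 13945 protein-coding genes, and among the 8 genes only in the window of *dhd*. The TATAAA match is on the minus strand, the strand of *TrxT*, 238 bases before the start of *dhd*. TATAAA was in 43.0% of all windows and in those of *dhd*, *plu*, *wisp* and *cort*, and GAGAG was in 25.7% of windows and in none of the 8. A match is a stretch of letters and was not tested as a binding site.

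The 3 genes of the PNG kinase differed in level and in ratio. *png* (FBgn0000826, chrX:1356488-1357601, minus strand), the catalytic subunit, had base means of 748 in ovaries and 89.4 in embryos, or 21.8 and 4.69 CPM. Its log2 ratio of -2.10 was the lowest of the 8 genes. The embryo share was 21.6% of the ovary share. At the pooled embryo sum, 1 embryo genotype could have at most 43.1% of the pooled ovary share, which itself averages both genotypes. *plu* (FBgn0003114, chr2R:20262958-20263684, minus strand), the ankyrin repeat subunit, had base means of 882 and 228, or 25.7 and 11.9 CPM, a log2 ratio of -1.07 that is just past the 2-fold limit. *gnu* (FBgn0001120, chr3L:14802380-14803360, minus strand), the activating subunit, had more RNA than both, with base means of 6528 and 2417, or 189.9 and 126.7 CPM, and was the nearest gene inside the limit at -0.58. All 3 subunits thus had a lower share in embryos, and *png* and *plu* passed the 2-fold limit while *gnu* did not.

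*cort* (FBgn0000351, chr2L:6674682-6676635, minus strand) had base means of 2296 in ovaries and 320.2 in embryos. In CPM this was 66.8 and 16.8, a log2 ratio of -1.96 next to that of *png*. The embryo share was 25.1% of the ovary share. At the pooled embryo sum, 1 embryo genotype could have at most 50.3% of the pooled ovary share, which itself averages both genotypes. The end of *cort* shares 99 bases with *cup* and *CG34310* on the opposite strand, and the reads of that stretch may have been counted for either side, since use of the strand in counting is not given in the sources used here.

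The remaining 3 genes had nearly the same share in both tables. *smg* (FBgn0016070, chr3L:8990317-8997989, minus strand) had base means of 57091 and 34228, or 1661 and 1794 CPM, a log2 ratio of 0.11, and moved from rank 44 in ovaries to rank 25 in embryos. *wisp* (FBgn0260780, chrX:11893943-11899920, plus strand) had 29669 and 16266, or 863 and 853 CPM, a log2 ratio of -0.02. *sra* (FBgn0086370, chr3R:16186999-16197584, plus strand) had 2235 and 1483, or 65.0 and 77.7 CPM, a log2 ratio of 0.26. *Bin1*, on the opposite strand, shares 2566 bases of its span and 301 exonic bases with *sra*, so that the levels of these 2 genes are uncertain. *Bin1* had 64.1 and 80.8 CPM, close to the values of *sra*.

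Per kilobase of exon, *dhd* stood above the other 7 genes in both tables. In ovaries the order was *dhd* at 2508 CPM per kilobase, *smg* at 279, *gnu* at 206, *wisp* at 162, *plu* at 41.7, *cort* at 40.4, *sra* at 27.4 and *png* at 19.5. In embryos it was *dhd* at 900.3, *smg* at 301, *wisp* at 160.3, *gnu* at 137, *sra* at 32.8, *plu* at 19.4, *cort* at 10.1 and *png* at 4.21. *dhd* and *png* have no annotated intron, and for the other 6 genes reads across exon junctions may have been lost in an alignment that does not join exons. *dhd* and *smg* led both orders and *png* closed both. Whether neighbors in these orders, such as *plu* and *cort* in ovaries or *wisp* and *gnu* in embryos, differ beyond the spread of libraries could not be tested.

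**Figure D1:**
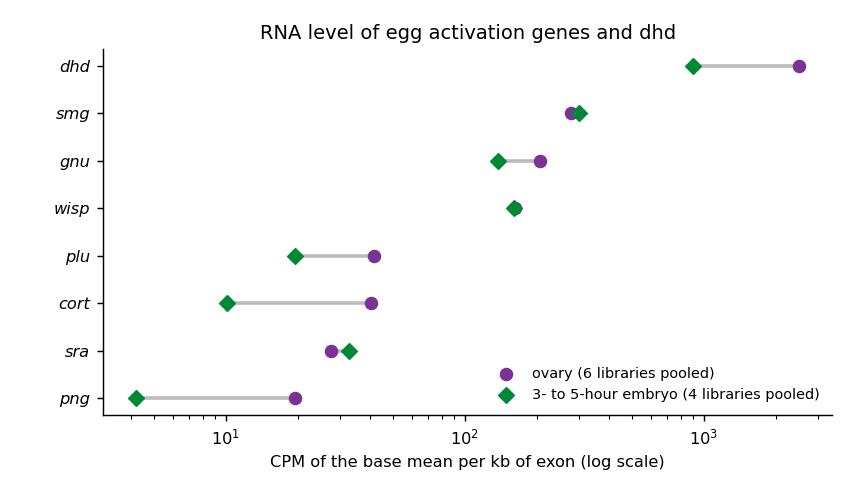
RNA level of the 8 genes as CPM of the base mean per kilobase of exon on a log axis, with circles for ovaries (6 libraries pooled), diamonds for 3- to 5-hour embryos (4 libraries pooled) and a grey line joining the 2 values of a gene. *dhd* is highest in both at 2508 and 900.3, the lines of *png* and *cort* are the longest, and the symbols of *wisp* nearly coincide.

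The nearest genes beside the 8, leaving out those that overlap them, had log2 ratios from -2.09 to 3.56. *png* is 14 bases from *CG11417*, which had a log2 ratio of -0.22, and 11647 bases from *CG14770*, with 1.70 at a low ovary base mean of 2.65. *plu* lies 74 bases from *PCNA*, the sliding clamp of DNA replication, with 1.35, and 294 bases from the ribosomal protein gene *RpS18*, with 0.35. *cort* lies 1334 bases from *Spn27A*, with 3.56, and 13 bases from *Nse1*, with 0.15. For *gnu*, *NHP2* had -0.09 and *CG17839* -2.09. For *wisp*, *sicily* had -1.75 and *Upf1*, a nonsense-mediated decay factor, had -0.20. For *smg*, *CG5280* had -0.17 and *CG5087* 0.01, and for *sra*, *CG8927* had -0.21 and *CG6126* -1.25. Beside *dhd*, *TrxT* had 0.31 and *CG4198* had -0.96.

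Genes of the same processes were taken from lists of translation and clearance factors, meiosis and cell cycle genes, calcium signalling genes, thioredoxin and pronucleus genes, and regulators of *dhd*. These 5 lists had medians above that of the 8 genes, while the 7 germline markers had a lower one, -0.99, with 3 of 7 at least 2-fold lower, and no test was made of any of these differences. Of the 20 translation and clearance genes, 5 were at least 2-fold lower and 4 at least 2-fold higher in embryos, with a median of 0.01. Among the 5 were *BicC* and *cup*, whose proteins repress maternal mRNAs, which had 667 and 330.5 CPM in ovaries and were listed at 0 in embryos. Without them 3 of 18 were at least 2-fold lower, with a median of 0.10. The annotation gives *CG34310* the same span as *cup*, and its reads may not be separable from those of *cup*. In ovaries the base means were close, 11386 for *CG34310* and 11361 for *cup*, while in embryos they were 39.0 and 0. Reads of overlapping genes may thus have been counted differently in ovaries and embryos, which was not tested. At the other end were *Gld2*, the poly(A) polymerase related to *wisp*, which went from 0.91 to 39.5 CPM with a log2 ratio of 4.83, and *Not1*, the scaffold of the deadenylase complex, at 1.20.

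Of the 16 meiosis and cell cycle genes, 1 was at least 2-fold lower and 2 were at least 2-fold higher, with a median of 0.12. *mos*, a kinase gene of oocyte maturation, had the lowest log2 ratio at -1.52, followed by *CycA* at -0.61. *CycB3*, a mitotic cyclin gene, had the highest at 2.63, from 211 to 1309 CPM, followed by *fzy* at 1.17, the mitotic counterpart of *cort*. Of the 9 calcium signalling genes that could be compared of 10, 1 was lower and 1 higher, with a median of -0.31. These were *CanB2*, a calcineurin subunit gene, at -1.60 and *CanA1*, a catalytic subunit gene, at 2.55 from a share of 0.36 CPM in ovaries. Next to them were *Trpm*, a cation channel gene, at -0.76 and *sgg*, the gene of a kinase that phosphorylates Sra, at 0.62.

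The thioredoxin and pronucleus list had 6 genes compared of 7, none past the 2-fold limit in either direction, and a median of -0.26. *Trx2*, the ubiquitous thioredoxin gene, had 107 and 62.9 CPM and a log2 ratio of -0.76, and the histone chaperone gene *Hira* had -0.47. *TrxT* at 0.31 and *asf1* at -0.01 were the highest of the list, and *Trxr2* was listed at 0 in ovaries. *dhd* RNA was thus the most abundant of the thioredoxin RNAs in both tables, with 2395 CPM in ovaries against 107 for *Trx2* and 0.53 for *TrxT*, before any correction for length. The 4 genes known from other work to be needed for *dhd* expression in ovaries all had a higher share in embryos, with *Kdm5* at 1.18 and *Snr1* at 1.13 past the limit, *mod(mdg4)* at 0.90, *Sin3A* at 0.64 and a median of 1.01. Their log2 ratios and that of *dhd* were thus of opposite sign, and no relation between them was tested.

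**Figure D2:**
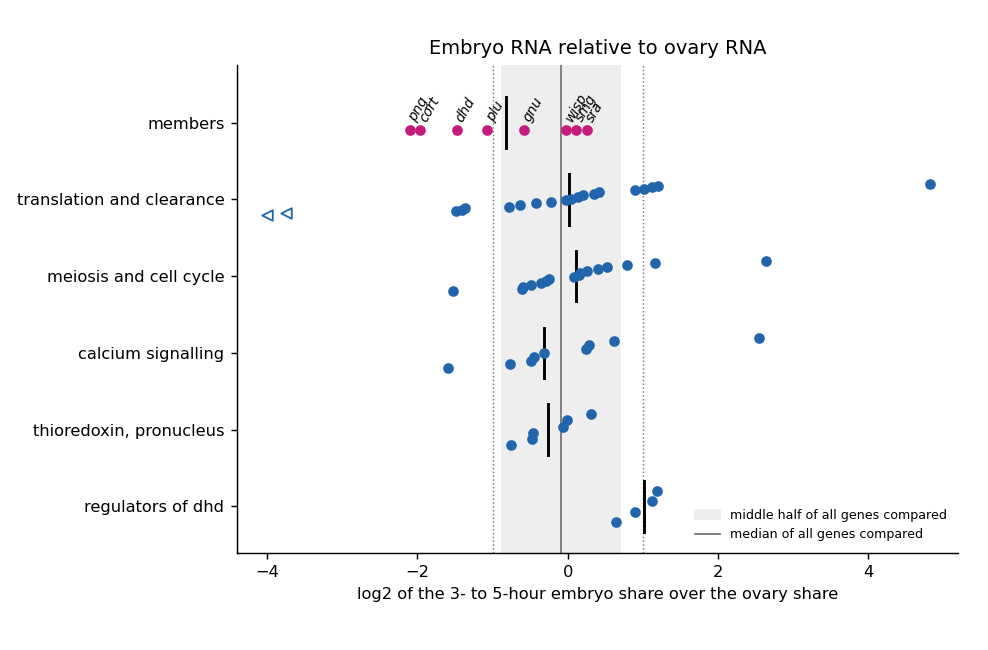
Log2 ratio of the 3- to 5-hour embryo share to the ovary share, with 1 point per gene for the 8 genes (members, named) and for 5 lists of related genes, and a black bar at each median. The shaded band is the middle 50% of all 10573 genes compared, the grey line their median of -0.08 and the dotted lines the 2-fold limits, and open triangles at the left edge mark *BicC* and *cup*, which are listed at 0 in embryos. *png*, *cort*, *dhd* and *plu* lie left of the lower limit and no member lies right of the upper one.

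The 23- to 29-nt RNAs, the size class of piRNAs, were counted on the same genes, and those of *smg*, *wisp* and *dhd* were the most abundant in embryos. Base means are given in the order ovary, 0- to 2-hour embryo and 3- to 5-hour embryo. *smg* had 1013, 211 and 168, *wisp* had 271, 103 and 72.4, and *dhd* had 128, 67.9 and 44.8. These tables summed to 4688955, 142146 and 109515, so a base mean in embryos is a far larger share of its table. As CPM of each table, *dhd* had 27.3, 478 and 409, *smg* had 216, 1485 and 1531, and *wisp* had 57.8, 721 and 662. In the embryo tables *dhd* exceeded 98.6% of genes at 0 to 2 hours and 98.3% at 3 to 5 hours, beside 92.1% in ovaries. A few genes held much of each sum, and without the 20 highest genes of each table the share of *dhd* was 54.6, 726 and 596 CPM. Fragments of mRNA cannot be told apart from piRNAs in these counts, whose strand is not given. Among the 8 genes, the 3 with the most ovary RNA were also the 3 with the most 23- to 29-nt RNA in embryos.

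The other genes had less such RNA in embryos than *smg*, *wisp* and *dhd*. *gnu* had base means of 35.9, 7.05 and 6.32, and *cort* had 26.8, 11.0 and 6.41. These placed *gnu* above 79.6%, 82.9% and 84.0% of genes and *cort* above 75.5%, 88.2% and 84.2%. *png* had 14.3, 0 and 1.45, and *plu* had 1.31, 0.33 and 0.73, so that both had base means under 2 in embryos. *sra* stood apart, with 304 in ovaries, above 95.6% of genes, and 1.72 and 2.80 in embryos. Its share was 64.8 CPM in ovaries and 12.1 and 25.6 CPM in embryos. The share of *dhd*, *plu*, *gnu*, *smg*, *wisp* and *cort* was higher in both embryo tables than in ovaries. These differences in share depend on the unlike sums of the tables, and the part of counting in them was not tested. *Bin1*, which overlaps *sra*, had base means of 248, 3.51 and 1.90, so the pattern was shared by both overlapping genes. Whether the reads of their shared stretch were counted alike in ovaries and embryos was not tested. Per kilobase of gene span, *dhd* was first of the 8 genes in all 3 tables, at 28.6, 500.5 and 428 CPM, just above *smg* at 28.2 in ovaries and well above its 194 and 199.6 in embryos. With exon length in place of span, *smg* at 36.2 CPM stood above *dhd* in ovaries.

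**Figure D3:**
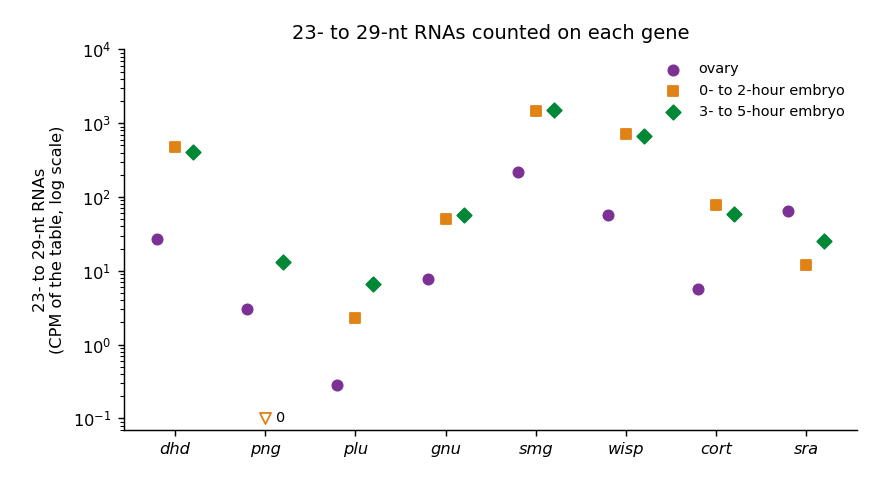
Counts of 23- to 29-nt RNAs on the 8 genes in CPM of each table on a log axis, with circles for ovaries, squares for 0- to 2-hour embryos and diamonds for 3- to 5-hour embryos (pooled genotypes, no spread available). The table sums differ widely, and whether ovary and embryo reads were counted alike was not tested. An open triangle at the bottom marks *png*, listed at 0 at 0 to 2 hours, and *sra* is the gene whose ovary symbol lies above both embryo symbols.

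Peaks allow control and *Kdm3* GLKD ovaries to be set side by side, as 1 list per mark and genotype. H3K9me2 and H3K9me3 are marks of heterochromatin, and Rhino binds methylated chromatin at dual-strand piRNA clusters. In control ovaries 2 of the 8 genes, *dhd* and *sra*, overlapped an H3K9me2 peak by at least 1 bp, against 16.2% of 17620 annotated genes, and in *Kdm3* GLKD ovaries 4 did, *dhd*, *png*, *wisp* and *sra*, against 35.8%. With a -log10 q-value of at least 5 these counts were 2 in control and 1 in *Kdm3* GLKD ovaries, and 2 genes in each had a peak within 500 bp of the start. The share of all genes under these rules is not given, so these counts have no background. The median -log10 q-value of the H3K9me2 peaks was 7.91 in the control list and 3.66 in the *Kdm3* GLKD list. H3K9me3 peaks overlapped *dhd* and *sra* in both, against 11.0% of genes in control and 17.4% in *Kdm3* GLKD ovaries. No gene of the 8 overlapped a Rhino peak, against 0.306% of genes in control and 3.19% in *Kdm3* GLKD ovaries. *plu*, *gnu*, *smg* and *cort* had no peak of any list within 3000 bp.

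The background differs by chromosome. Of 2678 genes of X, 28.8% overlapped an H3K9me2 peak in control and 70.8% in *Kdm3* GLKD ovaries, and of 14942 genes of autosomes 13.9% and 29.5%. *dhd*, *png* and *wisp* on X all overlapped one in *Kdm3* GLKD ovaries, and *dhd* also in control. With 1 list per genotype, a peak in 1 list only has no replicate check, and the lists differ in size, with 3983 peaks of H3K9me2 for control and 9564 for *Kdm3* GLKD.

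*dhd* lay inside a small domain of both marks in control ovaries. The H3K9me2 peak chrX:5311537-5313210 covered all of the gene with 1.82-fold enrichment over input and a -log10 q-value of 8.98, stronger than 54.4% of that list. The H3K9me3 peak chrX:5311903-5313106 covered 98.0% of the gene with 2.35-fold enrichment and a -log10 q-value of 21.6. In *Kdm3* GLKD ovaries the H3K9me2 peak chrX:5311397-5312836 covered 69.7% at 1.51-fold and 2.92, stronger than 41.4% of its list. The H3K9me3 peak chrX:5312189-5313105 covered 96.0% at 2.03-fold and 11.0, stronger than 82.4% of its list, beside 73.4% in control. Enrichment was lower in the *Kdm3* GLKD lists as a whole, with medians of 1.56 against 1.75 in control for H3K9me2 and 1.56 against 1.77 for H3K9me3. A gene with one of the most abundant ovary RNAs was thus covered by peaks of both marks in each genotype, in tissue that also holds somatic cells. No annotated transposable element lies within 3000 bp of *dhd*. *TrxT* was covered by H3K9me2 peaks over 26.9% of its span in control and 37.6% in *Kdm3* GLKD ovaries and by no H3K9me3 peak, and *CG4198* went from 0 to 55.6% for H3K9me2 and from 10.0% to 51.3% for H3K9me3.

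*png* lies at the edge of a long domain over 2 annotated transposable elements, an Ivk element at chrX:1357835-1367938 and a Doc element at chrX:1359245-1363966. In control ovaries the H3K9me2 peak chrX:1357755-1370223, with 3.56-fold enrichment and a -log10 q-value of 58.1, ended 153 bp before the start of *png*. In *Kdm3* GLKD ovaries the peak chrX:1355611-1370142, with 2.00-fold and 9.90, ran on over the whole gene and over 35.1% of *CG11417*. The H3K9me3 peaks, at 3.63-fold in control and 2.91-fold in *Kdm3* GLKD ovaries, ended 287 and 281 bp before the start of *png*, so the gene itself lay in an H3K9me2 peak of *Kdm3* GLKD ovaries only. The 250 bases upstream of *png*, chrX:1357602-1357851, are printed on the minus strand in the RefSeq sequence because the edge of the control H3K9me2 peak falls in them, with the 97 bases inside that peak in capitals.
png upstream: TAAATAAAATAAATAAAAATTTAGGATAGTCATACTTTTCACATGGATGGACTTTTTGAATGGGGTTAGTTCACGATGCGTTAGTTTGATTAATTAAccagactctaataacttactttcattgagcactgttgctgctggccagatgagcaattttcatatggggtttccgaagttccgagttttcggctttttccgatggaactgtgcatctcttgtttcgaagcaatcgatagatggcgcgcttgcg

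At *wisp* no control peak of H3K9me2 or H3K9me3 touched the gene, and the nearest ended 2057 and 2161 bp upstream. In *Kdm3* GLKD ovaries an H3K9me2 peak, chrX:11895194-11899059, covered 64.7% of the gene at 1.48-fold and a -log10 q-value of 2.74, weaker than most of its list, since 36.1% of peaks had less enrichment. Its neighbor *Upf1* was covered over 75.5% of its span by H3K9me2 peaks and over 27.7% by H3K9me3 peaks in *Kdm3* GLKD ovaries, and over none in control. No H3K9me3 peak touched *wisp* in either genotype.

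At *sra*, both marks in control ovaries stood over an intronic transposable element. This invader4 element, chr3R:16189464-16189810, lay wholly inside the H3K9me2 peak chr3R:16189449-16189845, at 2.79-fold and a -log10 q-value of 34.6, and the H3K9me3 peak chr3R:16189459-16189844, at 2.67-fold and 30.4. These peaks cover 3.75% and 3.65% of the gene. In *Kdm3* GLKD ovaries the H3K9me2 peak chr3R:16188752-16197029 covered 78.2% of the gene at 1.61-fold and 4.21, and H3K9me3 peaks covered 9.47%, at 2.05-fold over the element and 1.37-fold near the end of the gene. The wider H3K9me2 peak thus had a lower enrichment than the narrow control peak. It was stronger than 57.6% of the *Kdm3* GLKD list, and the control peak than 89.6% of the control list.

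**Figure D4:**
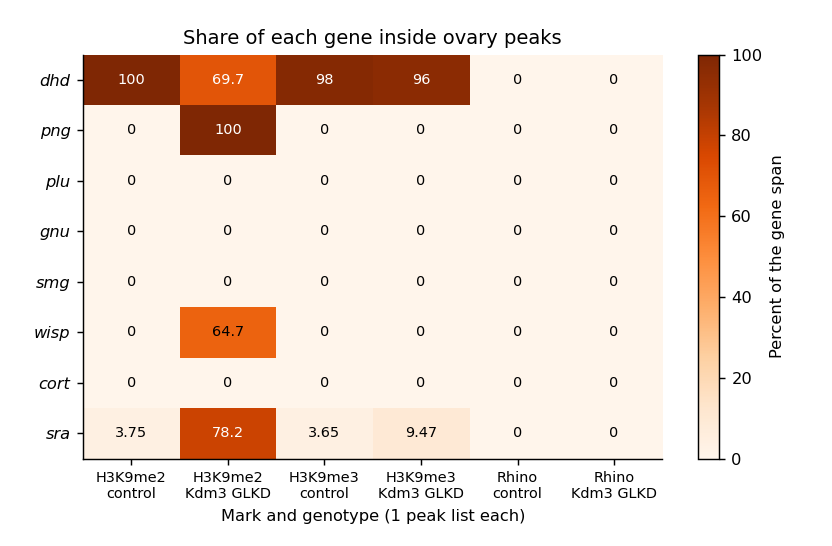
Percent of the span of each of the 8 genes that lies in peaks, for 3 marks in control and *Kdm3* GLKD ovaries (1 peak list each), with the value in each cell and darker color for a larger share. *dhd* is covered by both histone marks in both genotypes, *png*, *wisp* and *sra* have a dark cell for H3K9me2 in *Kdm3* GLKD ovaries only, and the Rhino columns are 0 throughout.

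**Figure D5:**
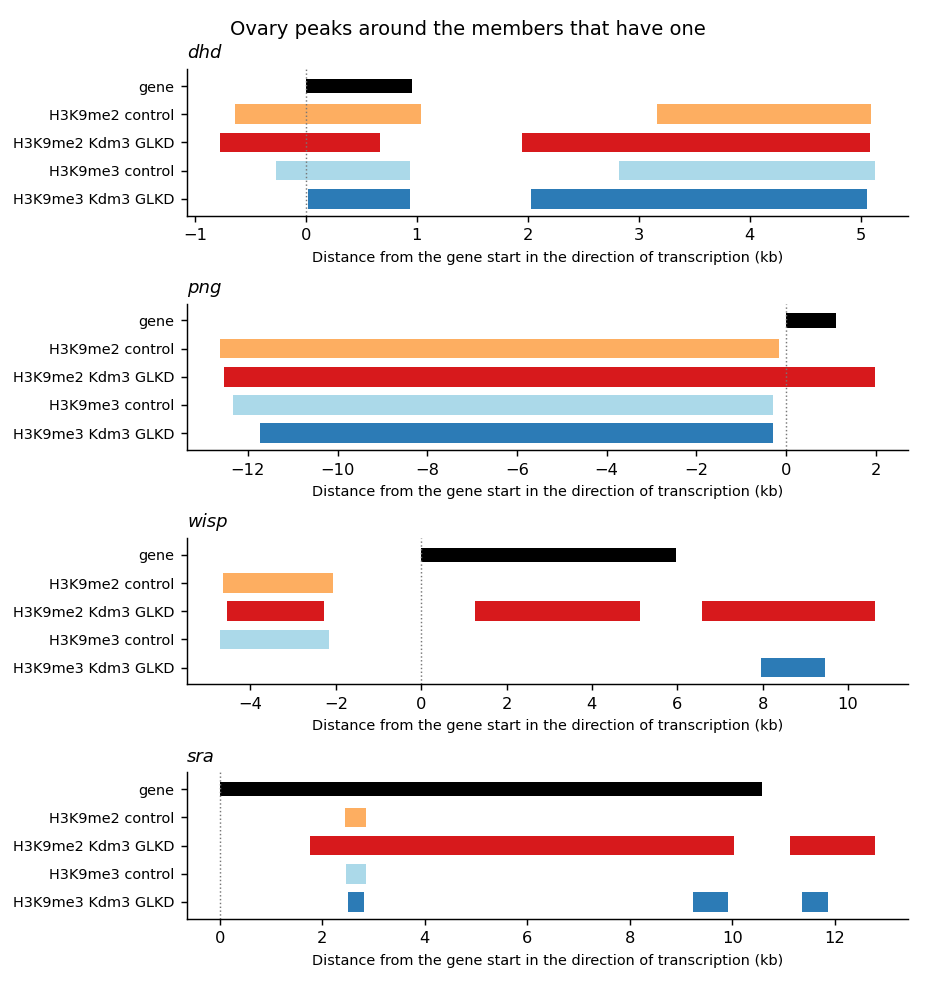
Position of H3K9me2 and H3K9me3 peaks (colored bars) around *dhd*, *png*, *wisp* and *sra* (black bars), in kilobases from each gene's start in its direction of transcription, with 1 row per mark and genotype. The *png* peaks of control ovaries stop before the gene while the H3K9me2 peak of *Kdm3* GLKD ovaries runs through it, and at *sra* the control peaks are 397 and 386 bp wide and the H3K9me2 peak of *Kdm3* GLKD ovaries is 8278 bp wide.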

How the data were processed

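RNA-seq (ribosomal RNA depleted, stranded kit), small RNA-seq and ChIP-seq of *Drosophila* ovaries and embryos were analysed from the processed files. For RNA-seq the authors aligned reads to the gene sequences of release 6.36 with Bowtie, which does not join exons, counted them with featureCounts and ran DESeq2. For small RNA-seq they report the same procedure with uniquely matching 23- to 29-nt reads, although the table sums differ from their reported numbers of such reads. Whether the settings for overlapping genes were the same for ovaries and embryos is not given. The deposited base mean, a signal of normalized reads averaged over all libraries of both genotypes, was the only value used from the 5 gene tables. Their other columns hold the authors' own comparisons (log2 fold change, its standard error, Wald statistic, p-value and adjusted p-value) and were not used. ChIP-seq reads were mapped by the authors with BWA (version 0.7.17.4). They removed duplicates with Picard (version 2.18.2.1) and called peaks at q = 0.05 with MACS2 (version 2.1.1.20160309.6), broad for the histone marks with a broad cutoff of 0.1, so that the histone lists also hold peaks of a q-value above 0.05. The deposited peak lists give each peak's fold ratio over input and its -log10 q-value. How libraries were combined into a list is not given in the sources used here.

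Base means were rescaled to CPM, and log2 ratios used a pseudocount of 0.5 CPM, which understates changes of low genes. Genes and transposable elements were placed with the Ensembl release 115 annotation and the RefSeq sequence of genome release 6, the dm6 build of the files, in which all 8 genes have the same span. A gene had a peak if at least 1 bp of its span overlapped. Python 3.11.15, numpy 2.4.6, pandas 2.3.3 and matplotlib 3.10.9 were used, and the functions were tested on simulated data.

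The genes and the lists were chosen with earlier results of these data known. Named genes were the 8 genes, the nearest gene on each side of each, the 5 genes nearest to *dhd* in RNA, the 2 highest and 2 lowest ratios of each list at an ovary base mean of at least 10, and the highest and lowest marker of each list. The *hfp* libraries and the single *Kdm3* libraries were not used here. Alternatives changed the scaling, the pseudocount, the filter, the length, the overlap and the peak threshold.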

Additional observations from a re-analysis of the deposited data

How the results depend on the processing

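The values are pooled over libraries, so counting depth, replicate spread and the difference between genotypes are out of reach for the RNA results. No paired analysis was possible because no file holds values per library, and for the same reason leaving out each replicate in turn could not be run. A log2 ratio was counted as moved at a change of 0.1 and a count or share at 1.5 times. The median log2 ratio of the 8 genes moved from -0.83 to -0.93 when ratios were shifted by 0.11, the median ratio over genes that reached a base mean of 10 in ovaries and in embryos alike, which also took the median of all genes from -0.08 to -0.19 and left the difference between them at -0.74, and to -0.71 with a pseudocount of 5 CPM, where 3 genes rather than 4 were at least 2-fold lower. Under all 5 alternatives of scaling and pseudocount 6 of the 8 genes had a ratio below 0, and no ratio changed sign. Without the filter on ovary base mean, 13.9% of all genes were at least 2-fold lower, and leaving out the genes listed at 0 in embryos, an alternative chosen after seeing the data, gave 18.5%. With length taken from the gene span, 5 of 8 genes kept their place in the embryo order, and with summed exons 3 of 8 kept theirs for 23- to 29-nt RNAs in ovaries. Without the 20 highest genes, the summed share of 23- to 29-nt RNAs on the 8 genes was 765 rather than 383 CPM in ovaries and 4295 rather than 2826 in 0- to 2-hour embryos, and as before *sra* was the gene higher in ovaries than in both embryo tables. The 8 genes were also set against the median rather than the mean, both taken over genes with a base mean above 0. By the median, 7, 5 and 6 of the 8 genes were above in ovaries, 0- to 2-hour and 3- to 5-hour embryos. By the mean, 1, 3 and 3 were above.

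H3K9me2 peaks over at least 50% of the gene span left 1 of the 8 genes in control and 4 in *Kdm3* GLKD ovaries, against 6.5% and 23.5% of all genes. For H3K9me3 this rule left 1 in each genotype, against 3.4% of all genes in control and 7.3% in *Kdm3* GLKD ovaries. A fold enrichment of at least 2 left 1 gene for H3K9me2 in each genotype. H3K9me2 peaks met the 500-bp windows around the start of 2 genes in control and 2 in *Kdm3* GLKD ovaries, and with a -log10 q-value of at least 5 they overlapped 2 genes in control and 1 in *Kdm3* GLKD ovaries, so that the higher count in *Kdm3* GLKD ovaries was lost under the former and turned under the latter. The 1 gene was *png*, while the H3K9me2 peaks over *dhd*, *wisp* and *sra* in *Kdm3* GLKD ovaries were below this limit. The share of all genes is not given for the fold, window and q-value rules, so the counts under them cannot be set against a background. No Rhino peak was found at any of the 8 genes under any overlap or threshold tried.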

Other observations

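*CG17839*, which lies 1775 bases from *gnu* on the opposite strand, had a base mean of 10368 for 23- to 29-nt RNAs in ovaries, against 35.9 for *gnu*, and was listed at 0 in both embryo tables. These values are not corrected for length, and *CG17839*, at chr3L:14805136-14882224, is much the longer gene. Whether its 0 in embryos reflects the RNA or the counting was not tested. Its peaks covered 15.0% of its span for H3K9me2 and 11.5% for H3K9me3 in control ovaries, and none reached *gnu*. Beside *sra*, *CG6126* was the gene among all neighbors of the 8 genes with a Rhino peak, over 6.7% of its span in *Kdm3* GLKD ovaries and 0 in control.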
